A study of Mus musculus with 13 samples.

Results

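The troponin genes are 8 genes of the mouse that encode the 3 subunits of troponin, and all 8 were found by symbol, 1 row each, among the 23236 rows of a gene-level expression table. The table compares 2 RNA-seq libraries of C2C12, an established line of mouse muscle precursor cells (myoblasts), which can be made to fuse into myotubes. Both libraries are labelled as myoblasts with poly(A)-selected RNA, and they differ in the label siNC (by the usual reading, a control siRNA) or siLinc-Yy1 (an siRNA against the long noncoding RNA Linc-Yy1, encoded beside the gene of the transcription factor Yy1). No siRNA sequence, dose or time after transfection is given in the labels, and C2C12 is a single established line with no knockout or transgene named. Since 1 library stands for each condition, nothing below could be checked against replicates, and no p-value was computed. The row of the targeted RNA, lincYy1, read 0.360 FPKM in siNC against 0.227 in siLinc-Yy1, a ratio of 0.629. Its 95% counting interval was 0.282 to 1.35 if the transcript is taken as 1 kb long. A longer transcript would give a narrower interval, and the length is not given. Whether the lower level exceeds counting error therefore cannot be told. The other libraries of the series, RNA-seq labelled GM and DM and 9 for chromatin immunoprecipitation, were not analysed here.

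Troponin is the calcium switch of striated muscle and sits on the thin filament together with actin and tropomyosin. Troponin C binds calcium, troponin I holds the filament off when calcium is low, and troponin T ties the complex to tropomyosin. Each subunit comes in forms encoded by separate genes. Tnnc2, Tnni2 and Tnnt3 encode the forms of fast skeletal fibres. Tnni1 and Tnnt1 encode those of slow fibres, Tnni3 and Tnnt2 those of the heart, and Tnnc1 serves slow fibres and heart alike. Tnnt2 and Tnni1 are also known from immature skeletal muscle and from the fetal heart, respectively, so a gene's fibre name does not say which cell made its RNA.

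The 3 fast genes were higher in the siLinc-Yy1 library, by 1.41-fold to 1.64-fold, and the 5 slow and cardiac genes were lower, at 0.789 to 0.971 times the siNC level. No member reached a 2-fold difference. The fast form therefore made up more of each subunit's transcripts in siLinc-Yy1: 48.4% against 36.8% of troponin C, 77.0% against 64.2% of troponin I and 39.9% against 27.6% of troponin T. Levels are in FPKM, which corrects fragment counts for transcript length and library size, so that genes can be set side by side. A log2 change compares siLinc-Yy1 with siNC after 1 FPKM is added to each value, which understates the change of low genes.

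**Figure D1:**
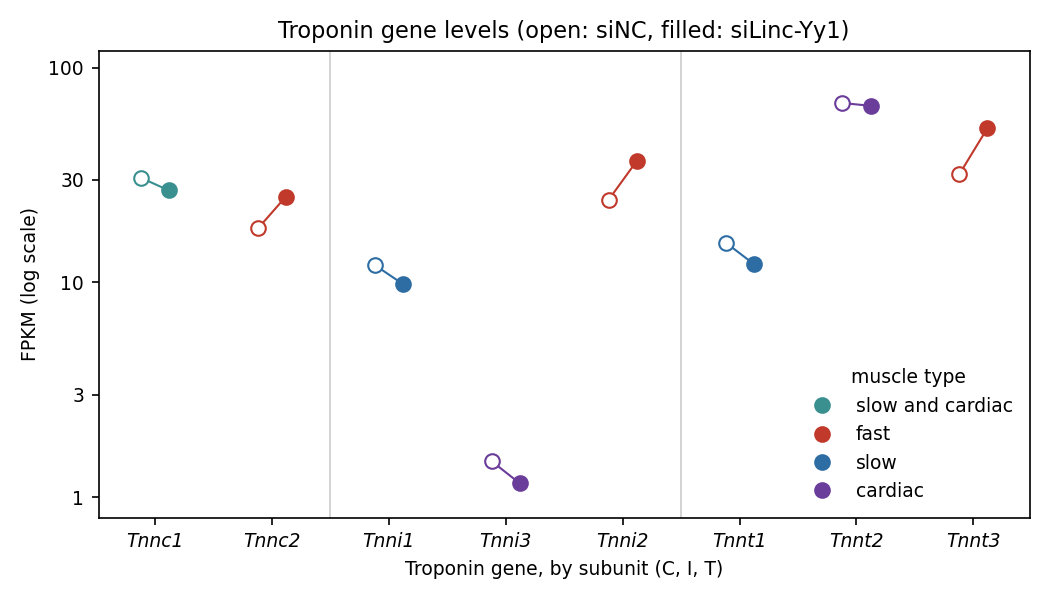
FPKM of each troponin gene (log scale) in the siNC library (open) and the siLinc-Yy1 library (filled), grouped by subunit and coloured by muscle type, with 1 library per point and no error bar. The lines of Tnnc2, Tnni2 and Tnnt3 run upwards and those of the other 5 genes run downwards, from 68.5 to 66.5 FPKM for Tnnt2, the most abundant.

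Counting error is small for all members but Tnni3. The size of 1-fragment steps among low FPKM values puts the siNC library at 66.1 M fragments and the siLinc-Yy1 library at 47.6 M, provided the authors did not rescale one to the other. Intervals (95%, exact) are given for 1 kb of transcript, since the table holds no transcript lengths. They cover counting error only and would be wider for a shorter transcript and narrower for a longer one.

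Troponin C, the calcium sensor, was represented by both of its genes. Tnnc1 (chromosome 14, 32021498 to 32024897, mm9) stood at 30.7 FPKM in siNC against 26.8 in siLinc-Yy1, a ratio of 0.874 (0.814 to 0.938). Tnnc2 (chromosome 2, 164602662 to 164605234) stood at 17.8 FPKM against 25.1, a ratio of 1.41 (1.30 to 1.53). The slow and cardiac gene was thus the higher of the pair in siNC, while in siLinc-Yy1 the counting intervals of both levels overlapped, at 25.4 to 28.3 FPKM for Tnnc1 and 23.7 to 26.6 FPKM for Tnnc2. Within a library, the ratio of Tnnc2 to Tnnc1 went from 0.581 to 0.937, a quantity that no rescaling of a whole library can alter. Summed troponin C was 48.5 FPKM in siNC against 51.9 in siLinc-Yy1.

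Troponin I, the inhibitory subunit, was mainly of the fast form in both libraries. Tnni2 (chromosome 7, 149628373 to 149630310) stood at 24.3 FPKM in siNC against 36.7 in siLinc-Yy1, a ratio of 1.51 (1.41 to 1.62). Tnni1 (chromosome 1, 137695998 to 137707566) stood at 12.04 FPKM against 9.82, a ratio of 0.816 (0.726 to 0.916). The ratio of Tnni2 to Tnni1 was 2.02 in siNC and 3.74 in siLinc-Yy1. Tnni3, the heart form (chromosome 7, 4469910 to 4474045), was the scarcest troponin gene at 1.47 FPKM in siNC against 1.16 in siLinc-Yy1. At 1 kb of transcript, its ratio of 0.789 had an interval of 0.555 to 1.11, so a difference was not detectable at this depth and length. The mean of Tnni3 lay just above the minimum of 1 FPKM used here. Tnni3 made up 3.89% of troponin I in siNC and 2.43% in siLinc-Yy1. Summed troponin I was 37.8 and 47.7 FPKM in siNC and siLinc-Yy1.

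Troponin T, the tropomyosin-binding subunit, had the highest summed level, 116 FPKM in siNC against 131 in siLinc-Yy1. With the FPKM totals of both libraries made equal, the direction turned for troponin T (116 against 105 FPKM) and for troponin C (48.5 against 41.5 FPKM). Tnnt2, the heart form (chromosome 1, 137732963 to 137748838), was the most abundant troponin gene, at 68.5 FPKM in siNC against 66.5 in siLinc-Yy1. It ranked at the 90.8th percentile of rows with at least 1 FPKM in siNC and at the 88.7th in siLinc-Yy1, and its ratio of 0.971 (0.927 to 1.02) did not differ from 1 beyond counting error. Tnnt1, the slow form (chromosome 7, 4456265 to 4467577), stood at 15.3 FPKM against 12.2, a ratio of 0.795 (0.717 to 0.882), the lowest ratio among members above 2 FPKM. Tnnt3, the fast form, stood at 31.9 FPKM in siNC against 52.3 in siLinc-Yy1, a ratio of 1.64 (1.54 to 1.74), the highest of the 8. Its row covers chromosome 7 from 149646775 to 149701914, a locus that the table gives also for Lsp1 and Gm14492. Whether any reads were divided between these genes was not tested, so the value may be less certain than its counting interval. Within a library, the ratio of Tnnt3 to Tnnt1 went from 2.08 to 4.29 and that of Tnnt3 to Tnnt2 from 0.466 to 0.787.

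The order of the 8 genes was nearly the same in both libraries. In siNC it ran Tnnt2, Tnnt3, Tnnc1, Tnni2, Tnnc2, Tnnt1, Tnni1 and Tnni3. Of these neighbours, the counting intervals of Tnnt3 (30.6 to 33.3 FPKM) and Tnnc1 (29.35 to 32.04 FPKM) overlapped, and those of the other neighbours did not. In siLinc-Yy1 Tnni2 stood before Tnnc1, and the overlapping neighbours were Tnnc1 and Tnnc2. Summed over subunits, the fast genes measured 74.0 FPKM in siNC against 114 in siLinc-Yy1, and the slow and cardiac genes 128 and 116 FPKM. The subunits were not at equal transcript levels in either library: troponin T stood at 2.39 times troponin C in siNC and 2.52 times in siLinc-Yy1.

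**Figure D2:**
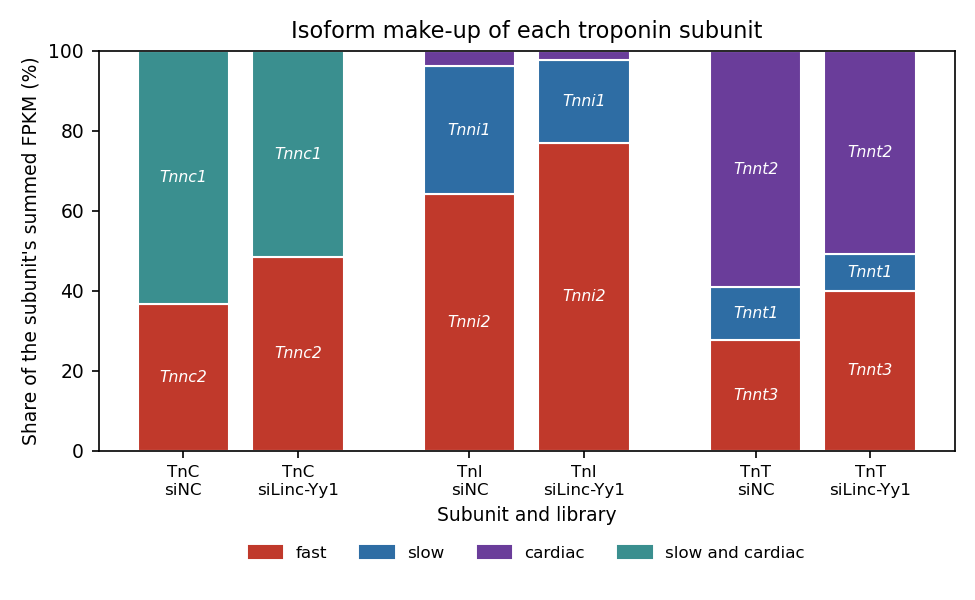
Share of each subunit's summed FPKM (percent, vertical axis) held by each gene, for troponin C, I and T in each library, 1 library per bar. The fast part, at the bottom of each bar, is taller in siLinc-Yy1 for all 3 subunits, and the heart gene Tnnt2 is the largest part of troponin T in both libraries.

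The shares had counting intervals that did not overlap between the libraries. For Tnnc2 the interval was 35.1% to 38.5% of troponin C in siNC and 46.4% to 50.4% in siLinc-Yy1. For Tnni2 it was 62.3% to 66.1% of troponin I in siNC and 75.2% to 78.7% in siLinc-Yy1. For Tnnt3 it was 26.6% to 28.6% of troponin T in siNC and 38.7% to 41.2% in siLinc-Yy1. Such intervals leave out the spread between cultures, which 1 library per condition cannot give. How often shares within other gene families also differ beyond counting error was not computed. The lack of overlap therefore does not set the troponins apart from other genes. In bulk RNA, a different number of cells with fast transcripts and a different amount of RNA per cell cannot be told apart.

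None of the 8 members was at least 2-fold higher and none at least 2-fold lower, against 1.39% and 0.178% of the 11792 rows with a mean of at least 1 FPKM. At 1.5-fold, 1 member was higher (Tnnt3, log2 change 0.69) and none was lower, against 3.28% and 0.517% of rows. Tnni2, at 0.58, lay just under that bound. Of all rows, 2.57% had a log2 change at least as high as Tnnt3, 3.30% as high as Tnni2 and 4.32% as high as Tnnc2 (0.47). Of all rows, 4.94% were at least as low as Tnnt1 (-0.31), 7.42% as low as Tnni1 (-0.27), 15.8% as low as Tnnc1 (-0.19), 15.04% as low as Tnni3 (-0.19) and 44.9% as low as Tnnt2 (-0.04). The median log2 change was -0.12 over the 8 members, 0.58 over the 3 fast ones and -0.19 over the other 5, and -0.02 over all rows. Among all rows 45.4% lay above 0. The 3 fast genes thus lay in the upper 5% of rows, while the shares for the slow and cardiac genes ran from 4.94% to 44.9%.

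In the authors' deposited table no member was called, where 1.62% of the 14366 rows with status OK were. The q-value in the authors' deposited table was 0.108 for Tnni2, 0.346 for Tnnc2 and 0.617 for Tnnt3. Its unadjusted p was under 0.05 for 2 members, Tnni2 (0.00259) and Tnnc2 (0.0170), as it was for 8.62% of rows with status OK. The other 5 members had q-values of 0.781 or more in the authors' deposited table. That test rests on the same pair of libraries.

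Abundant rows tended to be higher in siLinc-Yy1, so the median change of rows at a like level (a running median along mean FPKM) was also subtracted from each change. Less this trend, the fast genes stood at 0.49 (Tnnc2), 0.55 (Tnni2) and 0.63 (Tnnt3). The others stood between -0.17 (Tnni3) and -0.26 (Tnnt1), with Tnnt2 at -0.20, further from 0 than before. Rescaling both libraries to equal summed FPKM lowered the median of all rows to -0.30, and Tnnc2, Tnni2 and Tnnt3 then stood at 0.16, 0.27 and 0.38, still above that median and above 0.

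**Figure D3:**
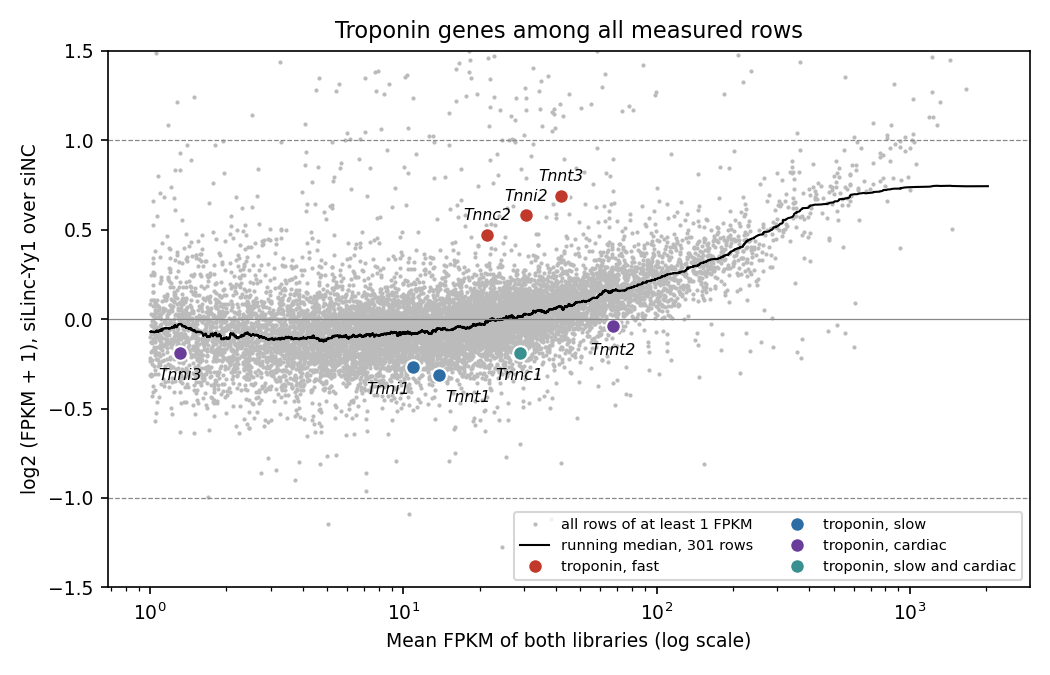
Log2 change (1 FPKM added, siLinc-Yy1 over siNC) against mean FPKM (log scale) for all rows of at least 1 FPKM (grey) with their running median (line), the troponin genes coloured by muscle type and dashed lines at 2-fold; 77 rows lie beyond the vertical axis. Tnnc2, Tnni2 and Tnnt3 sit above the line by 0.49 to 0.63, and the other members sit below it.

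Most troponin genes lie in pairs of a troponin I and a troponin T gene, and the table shows these pairs as neighbours. For Tnni2 and Tnnt3, the fast pair on chromosome 7, the table gives 16.5 kb from Tnni2 to the near end of the locus listed for Tnnt3, Lsp1 and Gm14492 together, and not the distance to Tnnt3 itself. Both were higher in siLinc-Yy1 (log2 change 0.58 and 0.69). Lsp1, a leukocyte-associated actin-binding protein whose row shares the locus of Tnnt3, stood at 69.5 FPKM against 75.7 (0.12). Mrpl23, a mitochondrial ribosomal protein 17.1 kb beyond the far end of that locus, measured 61.4 and 64.7 FPKM (0.07). Tnni3 and Tnnt1, a heart and a slow gene, lie 2.33 kb apart on chromosome 7, and Tnnt1 was at 10.5 times the level of Tnni3 in siNC and 10.5 times in siLinc-Yy1. Tnni1 and Tnnt2, a slow and a heart gene, lie 25.4 kb apart on chromosome 1 with Lad1 between them, which measured under 1 FPKM in both libraries. Both members of each pair lay on the same side of 0, though for Tnnt2 and Tnni3 the difference was within counting error.

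Within 50 kb of a member's listed locus there were 30 rows of other genes, 18 of them with a mean of at least 1 FPKM. Their median log2 change was 0.07, none was 2-fold changed, and they ran from -0.41 (Gm14492) to 0.56 (Ube2c). Ube2c, a ubiquitin-conjugating enzyme of mitosis 4.26 kb from Tnnc2, stood at 127 FPKM against 187. Next nearest to Tnnc2 were Acot8, at 11.1 and 9.06 FPKM, Snx21, listed at the same locus as Acot8, at 15.9 and 19.4 FPKM, and Dnttip1, at 44.4 and 48.1 FPKM. Nisch, 1.49 kb from Tnnc1, measured 89.8 and 111 FPKM, opposite in direction to Tnnc1. Ppp1r12c, 2.98 kb from Tnnt1, measured 21.3 and 20.4 FPKM.

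Sequences before the start site were at hand for 6 of the 8 members, in RefSeq's annotation of build GRCm38.p6, and not for Tnni2 and Tnnt3. The 250 bases before the start are shown for both troponin C genes, which lay on opposite sides of 0, and for Tnnt2, the most abundant member (the first of its 2 annotated starts). Capitals mark the E-box CANNTG, the core bound by factors such as MyoD, and the M-CAT element CATTCC or its reverse complement GGAATG, bound by TEAD factors. Tnnc1 is read from chr14:31208062-31208311 (plus strand), Tnnc2 from chr2:164779735-164779984 (minus strand) and Tnnt2 from chr1:135836084-135836333 (plus strand), all written 5′ to 3′.
Tnnc1: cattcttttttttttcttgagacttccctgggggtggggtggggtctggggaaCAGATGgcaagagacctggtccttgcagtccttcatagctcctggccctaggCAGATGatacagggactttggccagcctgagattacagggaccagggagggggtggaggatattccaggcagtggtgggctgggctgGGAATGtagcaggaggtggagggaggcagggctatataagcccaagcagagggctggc
Tnnc2: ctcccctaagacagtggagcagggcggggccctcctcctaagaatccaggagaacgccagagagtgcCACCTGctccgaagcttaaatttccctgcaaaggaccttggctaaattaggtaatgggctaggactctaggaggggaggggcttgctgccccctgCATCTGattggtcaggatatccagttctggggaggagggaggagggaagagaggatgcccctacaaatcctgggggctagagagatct
Tnnt2: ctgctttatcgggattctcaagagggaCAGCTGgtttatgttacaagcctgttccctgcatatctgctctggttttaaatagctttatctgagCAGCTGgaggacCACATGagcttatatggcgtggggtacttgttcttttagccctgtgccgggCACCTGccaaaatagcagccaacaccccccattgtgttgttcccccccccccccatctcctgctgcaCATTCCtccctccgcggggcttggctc

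Both troponin C windows held 2 E-boxes, and the Tnnt2 window held 4, of which 2 were CAGCTG. An M-CAT element stood 58 bases before the start of Tnnc1 and 27 bases before that of Tnnt2, and none was found in the Tnnc2 window. No marked stretch of one kind overlapped one of the other in these windows. An E-box was present in every window of the 6 genes, as it was in 66.2% of all 32851 RefSeq windows of this length. CAGCTG was present in 13.0% of all windows, M-CAT in 12.6% and the MEF2 consensus (searched on both strands) in 2.92%, the last in no member's window. These are matches of letters and say nothing about binding in these cells.

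The label of the cells was checked against markers. All 6 myoblast and skeletal muscle markers were above 1 FPKM in both libraries, among them Des (322 and 487 FPKM in siNC and siLinc-Yy1), the intermediate filament desmin, and Myod1 (62.5 and 67.0 FPKM), the determination factor. Their levels summed to 596 FPKM in siNC against 777 in siLinc-Yy1. Of 7 heart muscle markers, Gata4 (12.4 and 11.7 FPKM) and Nppb (3.70 and 2.16 FPKM) were above 1 FPKM. The atrial light chain Myl7 was at 0.0304 and 0.0427 FPKM and the heart myosin Myh6 at 0.109 and 0.115 FPKM, and the heart list summed to 17.1 and 14.6 FPKM. The heart troponin Tnnt2 was thus abundant in libraries in which Myl7 and Myh6 were close to 0. Summed levels in siNC and siLinc-Yy1 were 62.8 and 68.6 FPKM for 3 smooth muscle markers, mostly Smtn, and 117 and 152 FPKM for 2 nerve markers, nearly all Tubb3. For 2 markers each they were 0.208 and 0.245 FPKM (endothelium), 4.4997 and 4.44 FPKM (blood, nearly all Cd68) and 0.193 and 0.438 FPKM (epithelium). Cdh1, the epithelial cadherin, was called higher in the authors' deposited table, at 0.173 and 0.379 FPKM. None of these markers was listed at 0, and their part in the troponin differences was not tested.

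Other genes of fast fibres were mostly higher in siLinc-Yy1 too. Of 14 genes on the list, 13 had a mean of at least 1 FPKM, 12 of these lay above 0 and 1 below, and none was 2-fold changed. Their median log2 change was 0.43, against -0.02 over all rows, and 0.49 less the level trend. Pvalb, the calcium buffer parvalbumin, stood at 7.28 FPKM in siNC against 13.6 in siLinc-Yy1. Ckm, muscle creatine kinase, measured 14.5 and 24.9 FPKM. Myh4, the heavy chain of the fastest fibres, measured 6.86 and 11.1 FPKM, and Mybpc2, the fast myosin-binding protein C, 1.59 and 2.996 FPKM. These 4 genes passed 1.5-fold, where 3.28% of all rows with a mean of at least 1 FPKM did so upwards. The authors' deposited table called the same 4 higher, and no listed gene lower, where 1.62% of rows with status OK were called in either direction. Actn3, the fast alpha-actinin, was the 1 listed gene below 0, at 44.5 and 39.8 FPKM. Less the level trend, Actn3 stood at -0.23, and Tpm1 was then below 0 too, at -0.13.

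Slow and heart genes outside the troponins were mostly too scarce to set beside them. Of 12 slow genes only 3 had a mean of at least 1 FPKM, with a median log2 change of 0.13. They were Tpm3, a tropomyosin also made by non-muscle cells (227 and 321 FPKM), Atp2a2, the slow and cardiac calcium pump (72.2 and 79.1 FPKM), and Casq2, the cardiac calsequestrin (2.61 and 2.06 FPKM). Less the level trend, that median was -0.03. Of the 9 slow genes below that minimum, 7 had a higher FPKM in siLinc-Yy1 and 2 a lower one. Neither counting intervals for these genes nor the share of all such scarce rows that were higher was computed. No contrast with the slow troponins Tnni1 and Tnnt1 is therefore drawn from them. The slow myosin heavy chain Myh7 measured 0.277 and 0.409 FPKM, the slow light chains Myl3 0.676 and 1.30 FPKM and Myl2 0.783 and 1.10 FPKM. Mybpc1, the slow myosin-binding protein C, measured 0.474 and 0.900 FPKM, and Pln, the calcium pump inhibitor phospholamban, 0.157 and 0.304 FPKM. Of 14 cardiac genes 5 reached 1 FPKM, with 4 below 0 and a median of -0.17, and of the 9 others 5 were higher and 4 lower. That cardiac median was -0.08 less the level trend. Nppb measured 3.70 and 2.16 FPKM, Myl4, the atrial and embryonic light chain, 4.32 and 2.63 FPKM, and Ankrd1, a stress-responsive ankyrin repeat protein above 0, 199 and 270 FPKM. No gene of either list was 2-fold changed, and the authors' deposited table called none.

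**Figure D4:**
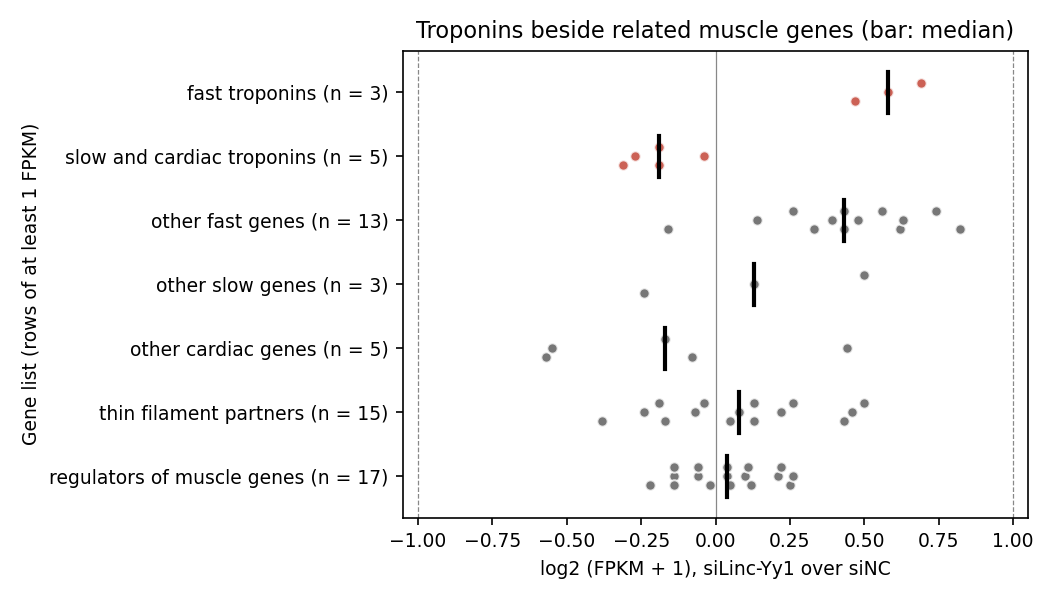
Log2 change (1 FPKM added, siLinc-Yy1 over siNC) of each gene (point) with at least 1 FPKM in the troponins (red) and in related gene lists (grey), with the median of each list as a bar and dashed lines at 2-fold; Tpm1, Tpm3 and Actc1 each stand in 2 lists. The fast troponins (0.47 to 0.69) lie among the higher of the other fast genes (median 0.43), and the regulators lie close to 0.

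The partners of troponin on the thin filament had a median log2 change of 0.08 over 15 genes of at least 1 FPKM (of 21 listed), 9 above 0 and 6 below, and 0.01 less the level trend. Skeletal actin Acta1 stood at 78.0 FPKM in siNC against 91.3 in siLinc-Yy1, and cardiac actin Actc1, the fetal form in skeletal muscle, 11.9 and 10.5 FPKM. The largest changes were in tropomyosins, which are abundant and also made in non-muscle forms. Tpm1 measured 286 and 387 FPKM, Tpm3 227 and 321 FPKM and Tpm4 262 and 362 FPKM, or -0.13, 0.01 and -0.07 less the level trend. Less that trend, the tropomyosins were thus near 0, unlike the fast troponins that bind the same filament.

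Regulators of muscle genes lay close together in the 2 libraries. Of 22 listed, 17 had a mean of at least 1 FPKM, 10 above 0 and 7 below, with a median log2 change of 0.04 and a range from -0.22 to 0.26. Myog, the differentiation factor, stood at 22.8 FPKM in siNC against 19.4 in siLinc-Yy1, opposite in direction to the fast troponins. Nfix, a factor of fetal muscle, measured 55.0 and 66.1 FPKM, and Mef2d 35.4 and 42.2 FPKM. Sox6, known as a repressor of slow fibre genes, was at 0.0535 and 0.0768 FPKM. Among 16 calcium sensors and smooth muscle thin filament proteins the median was 0.34, and -0.01 less the level trend. They included the calcium-binding proteins S100a4 (598 and 1000.01 FPKM) and S100a6 (236 and 368 FPKM). None of the thin filament, regulator or calcium sensor genes was called in the authors' deposited table.

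The rows nearest to the leading member of each subunit, by Euclidean distance over log2 (FPKM + 1) in the 2 libraries, were taken as a description. For Tnnt2 they were Aimp1 (68.4 and 66.5 FPKM, distance 0.00238), Cox17 (0.0103) and Txnl4a (0.0188). For Tnnc1 they were Tsfm (30.6 and 26.4 FPKM, 0.0211), Ppp3r1 (0.0232) and Cyth2 (0.0279). For Tnni2 they were Gadd45a (22.1 and 39.1 FPKM, 0.152), Tob1 (0.173) and Mustn1 (0.179), all further off. With 2 libraries, nearness means only a like level and a like difference.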

How the data were processed

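RNA-seq was analysed for 2 C2C12 libraries, 1 per condition, grouped by their titles. The authors deposited 1 gene-level Cuffdiff table as 2 identical copies, of which 1 was read. Its FPKM columns are the authors' estimates per gene, and its p-value and q-value columns are the authors' test of the same pair, per the file headers. The header names siNC and siLinc-Yy1 in that order, which the FPKM columns were taken to follow. Build mm9, Cuffdiff 2.0.4, Cufflinks 2.1.1 and TopHat2 2.0.4 are listed in the submitters' processing notes. How libraries were scaled, which annotation was used and how strand and duplicates were handled is not given in the sources used here.

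Changes were computed in Python 3.11.15 with pandas 2.3.3 as log2 of (FPKM + 1) ratios, over the 11792 rows with a mean of at least 1 FPKM, and counted at 2-fold. Depth came from 256 (siNC) and 166 (siLinc-Yy1) rows of single-exon receptor genes at 1 fragment, by a Theil-Sen fit of 1000/FPKM on length, which 100% and 98.2% of them met within 0.5%. Ratio and share intervals are exact binomial, level intervals exact Poisson (SciPy 1.17.1), at 1 kb of transcript. The size rule was tested on simulated data with counting error only and with changes larger than those of the troponins. That test does not bear on the spread between cultures or on changes of the size seen here. The text names all members, rows within 50 kb of them, the 3 listed genes with the largest absolute change per list, rows nearest in level, and genes called by the authors; 1 gene that this rule takes in is not reported here. Des, Myod1, Gata4, Myl7, Myh6, Smtn, Tubb3, Cd68, Myh7, Myl2, Myl3, Mybpc1, Pln, Acta1, Actc1, Actn3 and Sox6 were chosen after their values were seen. The members and lists were chosen with earlier results of these data known. Alternatives were other pseudocounts, filters, folds and scalings, and removal of the level trend.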

Additional observations from a re-analysis of the deposited data

How the results depend on the processing

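Alternatives were 0.1 or 5 FPKM added, no filter, a minimum of 5 FPKM, rescaling to equal totals, centring and removal of the level trend. Another added amount or filter cannot turn the sign of a gene's change, so those settings do not bear on direction. After rescaling, centring or trend removal, which can turn it, the 3 fast genes stayed above 0 (0.16 to 0.72). The other members stayed below 0 (-0.60 to -0.02). Tnni3 did not pass the minimum of 5 FPKM. No member reached 2-fold under any of these alternatives, and the count higher became 1 only at 1.5-fold. Rescaling to equal summed FPKM moved the median of the members to -0.36, beside -0.30 for all rows. It moved list medians to -0.18 (thin filament), 0.16 (fast), -0.19 (slow), -0.46 (cardiac), -0.26 (regulators) and 0.02 (calcium sensors and smooth muscle). It lowered summed siLinc-Yy1 levels to 38.2 FPKM (troponin I), 105 FPKM (troponin T) and 41.5 FPKM (troponin C), which put troponin T and troponin C below their siNC sums. Less the level trend, the slow list stood at -0.03 and the calcium sensor list at -0.01.

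With 1 FPKM added to each gene, the fast share of troponin I was 62.0% in siNC and 74.4% in siLinc-Yy1. Without the heart gene, it was 66.8% and 78.9% for troponin I, and 67.5% and 81.1% for troponin T, of which Tnnt2 is the largest part. No paired analysis was possible because each condition has 1 library, and no replicate could be left out. Depth limits Tnni3, and without transcript lengths the intervals are approximate.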

Other observations

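Genes of immature muscle, picked after their values were seen, are given as values. Myh3, the embryonic myosin heavy chain, stood at 3.08 FPKM in siNC against 1.85 in siLinc-Yy1, and the authors' deposited table called it lower. Chrng, the fetal gamma subunit of the acetylcholine receptor, measured 8.18 and 6.58 FPKM. Myl4, the embryonic and atrial light chain, measured 4.32 and 2.63 FPKM, while Myl1, the fast light chain, measured 43.4 and 48.0 FPKM. Of the summed FPKM of Myl1, Myl3 and Myl4, the fast Myl1 held 89.7% in siNC and 92.4% in siLinc-Yy1. Myh8, the perinatal heavy chain, did not share this direction, at 0.610 and 0.792 FPKM. Tnni3k, a heart kinase named for its binding to troponin I, was at 0.216 and 0.157 FPKM.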
